A study of Drosophila melanogaster with 6 samples.

Results

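The interior of chromosome arm 2L of Drosophila melanogaster was described from read counts in 100 bp windows of ovary chromatin. It was taken as the windows of 2L in the dm3 genome build outside the first 200 kb and the last 1.5 Mb, without the stretches from 12.8 to 13 Mb and from 21.41 to 21.55 Mb. This choice used position alone. It held 210100 of the 230116 windows of the arm (91.3%), of 1687367 windows in the whole series, and ran from 0.2 to 21.41 Mb. Together the windows covered 21.01 Mb and gave 210 whole windows of 100 kb.

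The su(Hw)f mutant, whose strain label reads su(Hw)fv, was set against wild-type flies of the Canton S strain. All libraries came from ovaries of virgin females less than 6 h old, fixed in 1.8% formaldehyde and amplified for 15 PCR cycles to library fragments of about 250 bp. Each genotype gave 1 preimmune serum library and 1 input library. The antibody label of all 4 reads anti-Su(Hw), but their descriptions give preimmune serum or input chromatin. The series also has 2 immunoprecipitations with antibody against Su(Hw), 1 per genotype, which are not analysed here; Su(Hw) binding is therefore outside these data. The mutation and the rest of the strain background cannot be told apart, and a single library per group allows no test. Intervals given with ratios and levels are 95% intervals for counting error only, and no difference has a replicate check.

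Su(Hw) is a zinc finger protein that binds DNA and is best known from the gypsy insulator. Input is sheared chromatin before any immunoprecipitation, so its read depth follows the DNA content of the tissue together with how well each stretch is recovered, amplified and placed on the genome. Preimmune serum carries no antibody raised against the protein, and its library reports chromatin that comes down regardless. The ovary holds polyploid cells such as nurse cells, and polyploid cells of the fly are known for stretches that replicate late and incompletely. How much of these young ovaries was polyploid was not measured here.

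The 4 libraries held 12173312 to 20596448 reads, of which 97.4 to 98.5% lay on the major arms. The 2L interior received 3487833 reads of the preimmune and 3448267 of the input library of su(Hw)f, and 2169055 and 2387923 reads of those of wild type. The median 100 bp window held 16 and 14 reads in the su(Hw)f preimmune and input libraries and 9 and 11 reads in the wild-type ones. Of the 210100 windows, 10140 (4.83%) had no read in any of the 4 libraries. Such windows cannot be told apart here from sequence on which reads could not be placed.

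Input DNA was uneven along the interior on the scale of 100 kb, with a high first part, a low stretch between 15200001 and 18200000 and the same pattern in both genotypes. Levels are given as multiples of each library's own median 100 kb window of the interior, which held 16860 preimmune and 15872 input reads for su(Hw)f, and 10415 and 11321 for wild type. Levels in su(Hw)f input ran from 0.463 to 1.65, with an SD of 0.230 over the 210 windows. In wild-type input they ran from 0.476 to 1.48, with an SD of 0.161. The 2 inputs followed each other closely over the 210 windows, with Pearson's r 0.970 and Spearman's rho 0.976. Neighbouring windows share their surroundings and all windows share depth and the libraries, so this describes the profiles only. The spread was also wider in su(Hw)f input than in wild-type input on the interiors of the other large arms examined, with SDs of 0.264 and 0.178 on X, 0.204 and 0.146 on 3L, and 0.177 and 0.128 on 3R.

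**Figure D1:**
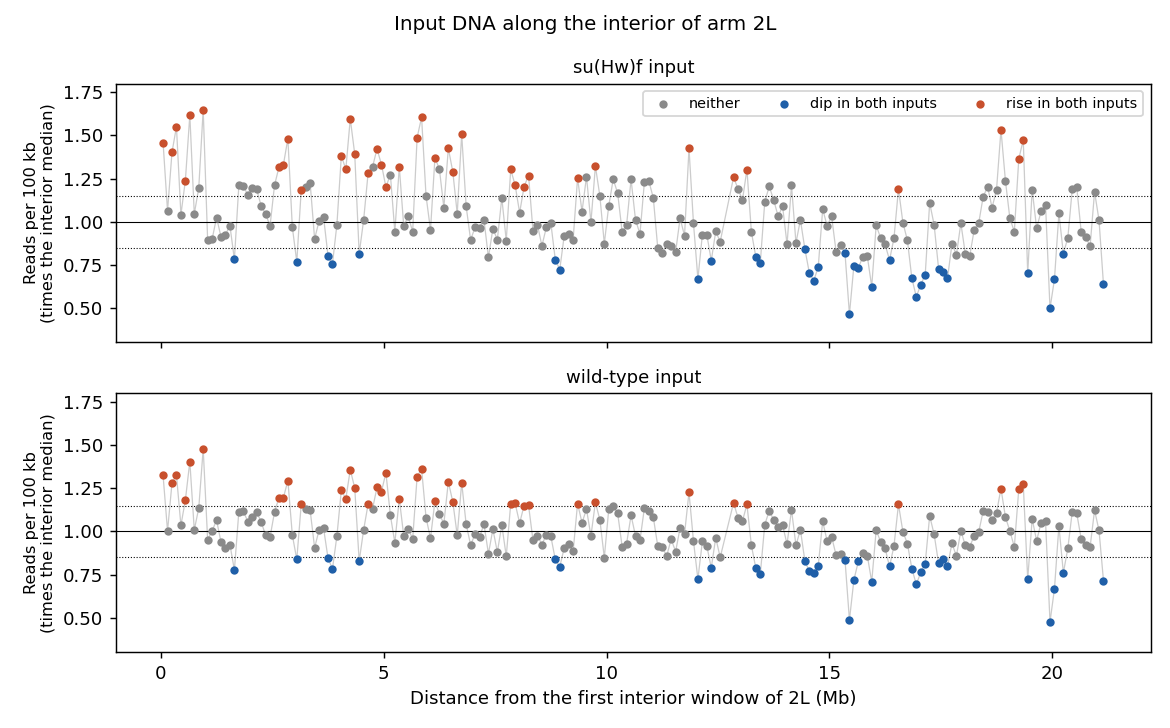
Reads per 100 kb window along the interior of 2L, as multiples of each library's interior median, in su(Hw)f input (upper panel) and wild-type input (lower panel), with dips and rises coloured. The span is 0.463 to 1.65 for su(Hw)f and 0.476 to 1.48 for wild type, and the low stretch and the high first part stand at the same places in both panels.

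A 100 kb window was called a dip where both inputs were at least 15% below the interior median, and a rise where both were at least 15% above it. There were 33 dips among the 210 windows (15.7%, against 19.2% over all major arms) in 18 separate regions, and 38 rises (18.1%, against 15.4% over all major arms) in 24 regions. On the other interiors dips made up 19.8% of windows on X, 14.0% on 3L and 12.98% on 3R, and rises 19.3%, 12.7% and 12.2%. The su(Hw)f input lay further from the median than wild-type input in 26 of the 33 dips and in 37 of the 38 rises. The threshold divided windows of near-equal level: 3900001-4000000 was just inside the dips at 0.804 in su(Hw)f and 0.847 in wild type, and 18000001-18100000 just outside at 0.809 and 0.858. Likewise 8300001-8400000 was just inside the rises at 1.204 in su(Hw)f and 1.1502 in wild type, and 10300001-10400000 just outside at 1.246 and 1.148.

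Dips and rises were placed unevenly. In the stretch from 15200001 to 18200000, 13 of 30 windows were dips and 1 was a rise, and the median input level was 0.814 in su(Hw)f and 0.862 in wild type. From 0.2 Mb to 3200000 there was 1 dip and 9 rises in 30 windows, with median levels of 1.17 in su(Hw)f and 1.07 in wild type. From 3200001 to 6200000 there were 4 dips and 12 rises, with median levels of 1.19 in su(Hw)f and 1.11 in wild type. From 6200001 to 9200000 there were 2 dips and 8 rises in 30 windows, and from 9200001 to 12200000 there were 0 and 3 in 30. From 12200001 to 15200000 there were 8 dips and 2 rises in 28 windows. From 18200001 to 21200000 there were 4 dips and 3 rises in 30, and beyond that 1 dip and 0 rises in 2. Some dips of these stretches lie in regions rich in empty windows, described below.

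Among dip regions with under 5% empty windows, the longest lay at 17000001-17400000 (400 kb) and 17600001-17900000 (300 kb). In input the first held 40700 reads of su(Hw)f and 34577 of wild type, levels of 0.641 (0.635 to 0.647) and 0.764 (0.756 to 0.772). The SD over its 40 windows of 10 kb was 0.138 in su(Hw)f input and 0.131 in wild-type input. The input was low nearly throughout: 39 of the 40 windows were below the median in su(Hw)f and 40 of 40 in wild type. Only 3.88% of its 100 bp windows were empty in all libraries, and the level per window that held reads was 0.646 in su(Hw)f and 0.769 in wild type. The second dip stood at 0.704 in su(Hw)f input and 0.818 in wild-type input, with 3.77% of windows empty.

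Between these dips, 17400001-17500000 stood at 1.11 in su(Hw)f input and 1.09 in wild-type input, and 17500001-17600000 at 0.983 and 0.984. A short piece of this gap was high. At 17460001-17530000, bounds chosen after the values were seen, the level was 1.36 in su(Hw)f input and 1.27 in wild-type input, with no empty window. Its 7 windows of 10 kb lay between 1.14 and 1.57 in su(Hw)f, and between 1.13 and 1.45 in wild type.

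Other low regions held many windows with no read. The lowest by the mean of the 2 inputs, 20100001-20300000, stood at 0.582 in su(Hw)f input and 0.571 in wild-type input, but 34.0% of its 100 bp windows were empty in all 4 libraries, and per window with reads the levels were 0.853 and 0.837. The 400 kb region 15500001-15900000 stood at 0.691 in su(Hw)f and 0.717 in wild type with 21.5% empty windows, and at 0.853 and 0.884 per window with reads. It includes 10 kb at 15660001-15670000 with no read in any library. Over the 33 dips, 7 had more than 20% empty windows, 18 had 5 to 20% and 8 had under 5%. When levels were taken per window with reads, 0 of those 7, 11 of the 18 and all 8 of the 8 were still at least 15% below the median in both inputs.

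Of the remaining regions among the 10 lowest, 16100001-16200000 stood at 0.624 in su(Hw)f and 0.709 in wild type with 16.6% empty windows. The region 21300001-21400000 stood at 0.637 and 0.715 with 10.6% empty, and 12200001-12300000 at 0.668 and 0.724 with 10.7% empty. These 3 were lower in su(Hw)f. The region 19600001-19700000 stood at 0.701 in su(Hw)f and 0.723 in wild type with 22.1% empty, and at 0.873 and 0.898 per window with reads. The 400 kb region 14600001-15000000 stood at 0.735 and 0.789 with 8.1% empty. At 13500001-13700000 the order was the other way, with 0.778 in su(Hw)f and 0.770 in wild type, 14.6% of windows empty, and 0.884 and 0.872 per window with reads.

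By the mean of the 2 inputs, the highest rise was 1100001-1200000, where the inputs held 26169 reads for su(Hw)f and 16733 for wild type, levels of 1.65 (1.63 to 1.67) and 1.48 (1.46 to 1.501). Its highest 10 kb, 1160001-1170000, reached 2.20 in su(Hw)f and 1.72 in wild type. The region 5900001-6100000 stood at 1.55 in su(Hw)f and 1.34 in wild type. At 6900001-7000000 the levels were 1.51 and 1.28, at 0.2 to 0.3 Mb they were 1.46 and 1.32, and at 19000001-19100000 they were 1.53 and 1.25. All 5 of these highest rises were higher in su(Hw)f input. The longest rise, 400 kb at 4200001-4600000, stood at 1.42 in su(Hw)f and 1.26 in wild type.

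The su(Hw)f preimmune library followed the dips and rises of input, while the wild-type preimmune library stayed near its median in most of them. In the 33 dips the su(Hw)f median level was 0.802 in preimmune and 0.728 in input, and the wild-type median was 0.966 in preimmune and 0.785 in input. All 33 dips were below 1 in su(Hw)f preimmune, whereas in wild-type preimmune 21 were below 1 and 12 above. These levels count empty windows, which lower all 4 libraries. Per window with reads, su(Hw)f preimmune over the 18 dip regions ran from 0.770 (17000001-17400000) to 1.02 (3200001-3300000). Wild-type preimmune ran from 0.910 (20100001-20300000) to 1.17 (3200001-3300000). In the 38 rises the su(Hw)f median was 1.11 in preimmune and 1.35 in input, and the wild-type median was 0.986 in preimmune and 1.23 in input. Of these rises 37 were above 1 in su(Hw)f preimmune and 16 in wild-type preimmune. In the 139 other windows all 4 medians lay between 0.986 and 1.02.

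**Figure D2:**
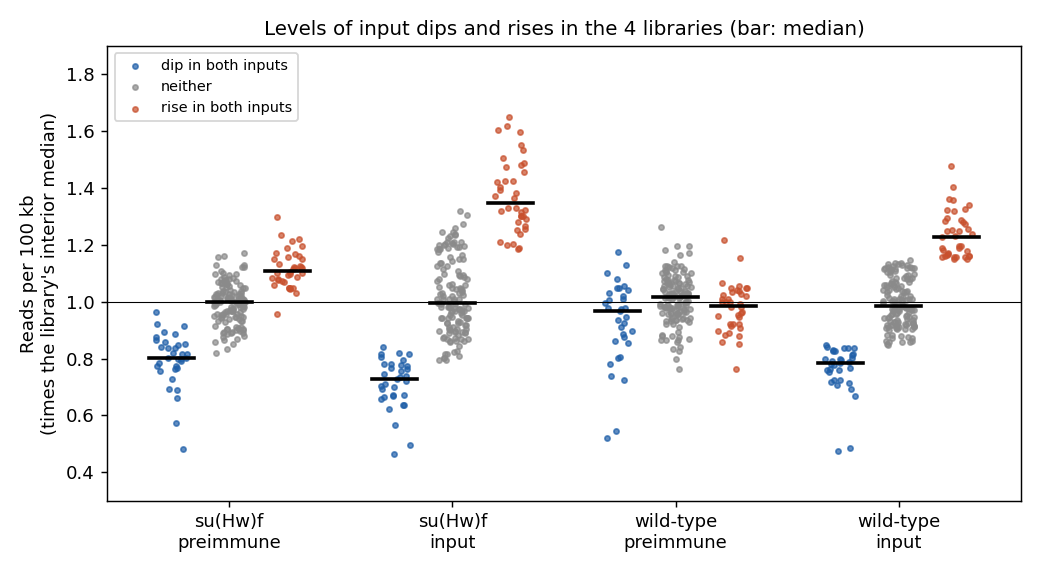
Level of each 100 kb window in the 4 libraries, as multiples of the library's interior median, split into input dips, input rises and other windows, with a bar at each median. The inputs chose the dips and rises, and in preimmune the dips centre on 0.802 in su(Hw)f and 0.966 in wild type, the rises on 1.11 and 0.986.

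Within the dip at 17000001-17400000, all 40 windows of 10 kb were below the median in su(Hw)f preimmune, against 16 of 40 in wild-type preimmune. The whole dip stood at 0.763 in su(Hw)f preimmune and 1.01 in wild-type preimmune. The dip at 17600001-17900000 stood at 0.819 and 1.06. By contrast 20100001-20300000, rich in empty windows, was low in both, at 0.630 in su(Hw)f preimmune and 0.623 in wild-type preimmune. Per window with reads these levels were 0.925 and 0.910. Across the 210 windows the levels of the 2 preimmune libraries followed each other less closely than the inputs did, with r 0.440 and rho 0.267.

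Scaled to reads on the major arms, preimmune over input for the whole interior was 1.039 (1.038 to 1.041) in su(Hw)f and 1.050 (1.048 to 1.052) in wild type. The su(Hw)f direction turned to 0.943 when libraries were scaled by the median 1 kb ratio instead, which shifts every su(Hw)f preimmune over input ratio by 0.14 on the log2 scale. The same ratios were 0.934 and 0.961 on the X interior, 1.02 and 1.03 on 3L, and 0.999 and 0.988 on 3R. Over 100 kb windows the ratio lay between 0.751 and 1.39 in su(Hw)f, and between 0.647 and 1.54 in wild type.

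At a fold of 1.1, preimmune was higher than input in 86 windows in su(Hw)f (41.0%, against 29.3% over all major arms) and lower in 26 (12.4%, against 20.5%). With the median scaling the su(Hw)f split was 30 higher and 68 lower. In wild type preimmune was higher in 89 windows (42.4%, against 32.6%) and lower in 41 (19.5%, against 27.8%). The genotypes shared 75 higher windows, 87.2% of those in su(Hw)f and 84.3% of those in wild type. They shared 23 lower windows, 88.5% of those in su(Hw)f and 56.1% of those in wild type, and 0 windows were called in opposite directions. These overlaps were counted on 2L only. No library is common to the su(Hw)f and the wild-type ratio, and their log2 values over the 210 windows had r 0.941 and rho 0.938. Their inputs had r 0.970 and their preimmune levels r 0.440, so the shared input profile enters this agreement. How much of it the inputs account for was not tested. The log2 ratios had r 0.902 on the X interior, 0.922 on 3L and 0.917 on 3R.

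**Figure D3:**
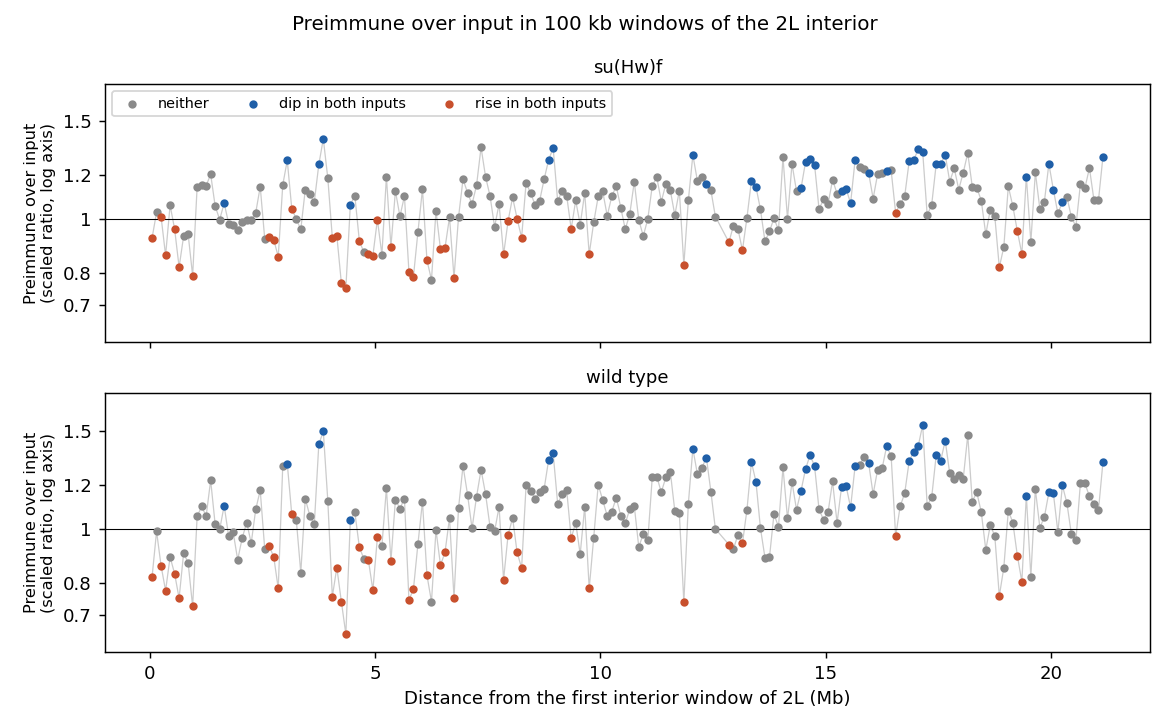
Preimmune over input in 100 kb windows along the 2L interior on a log axis, in su(Hw)f (upper panel) and wild type (lower panel), scaled to reads on the major arms. The ratio spans 0.751 to 1.39 in su(Hw)f and 0.647 to 1.54 in wild type, with input dips above 1 and most input rises below 1 in both. The dips and rises were chosen from the same inputs that the ratios hold.

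Windows low in input had high preimmune over input. A ratio holds its own input, so the dips were chosen here from the input of the other genotype. This does not free the choice from the ratio's own input, because the 2 inputs followed each other closely (r 0.970). A preimmune profile flatter than input would by itself give ratios above 1 in dips and below 1 in rises. The counts below therefore describe the profiles and are no separate support. In the 35 windows at least 15% below the median in wild-type input, the su(Hw)f ratio had a median of 1.25 (range 1.01 to 1.39) and was above 1 in 35 of 35, or in 29 of 35 with the median scaling. In the 43 such windows of su(Hw)f input, the wild-type ratio had a median of 1.30 (range 1.04 to 1.54) and was above 1 in 43 of 43, with either scaling. Of the 139 windows that were neither dip nor rise, the ratio was above 1 in 107 in su(Hw)f (55 with the median scaling) and in 104 in wild type (99). In the 38 windows at least 15% above the median in wild-type input, the su(Hw)f ratio had a median of 0.884 and was below 1 in 34, or in 38 with the median scaling. In the 66 such windows of su(Hw)f input, the wild-type ratio had a median of 0.889 and was below 1 in 58 with either scaling.

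Ranked by the mean log2 ratio of the 2 genotypes, the highest 100 kb window was 4000001-4100000, a dip. There su(Hw)f had 16266 preimmune and 12005 input reads, with a ratio of 1.39 (1.36 to 1.43), and wild type 11457 and 8855, with a ratio of 1.496 (1.45 to 1.54). The next 4 were 17300001-17400000 (1.32 in su(Hw)f and 1.54 in wild type), 18300001-18400000 (1.31 and 1.47), 17800001-17900000 (1.30 and 1.44) and 17200001-17300000 (1.33 and 1.41). All 5 of these windows were higher in preimmune in both genotypes, and 4 of them lay between 17200001 and 18400000. The lowest by the same ranking was 4500001-4600000, where su(Hw)f had 16152 preimmune and 22105 input reads (0.751, 0.736 to 0.766) and wild type 7934 and 14184 (0.647, 0.629 to 0.665). The next lowest were 4400001-4500000 (0.768 in su(Hw)f and 0.740 in wild type), 1100001-1200000 (0.791 and 0.725), 6400001-6500000 (0.777 and 0.740) and 6900001-7000000 (0.784 and 0.751).

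In 1 kb windows, called at 2-fold with at least 20 counts, the preimmune and input libraries differed in both directions. Preimmune was higher in 1457 of 20174 windows in su(Hw)f (7.22%, against 6.82% over all major arms) and lower in 547 (2.71%, against 3.35%). The su(Hw)f split was 868 higher and 903 lower with the median scaling. In wild type preimmune was higher in 2160 of 20170 windows (10.7%, against 9.75%) and lower in 1701 (8.43%, against 10%). These shares lay near those of all major arms. Of 20152 windows tested in both genotypes, 699 were higher in both, 48.3% of the su(Hw)f list and 32.6% of the wild-type list. Another 356 were lower in both, 65.4% of the su(Hw)f list and 20.9% of the wild-type list. These overlaps were counted on 2L only and do not set it apart from other arms.

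By the same ranking, the highest 1 kb ratios belonged to windows with little input in both genotypes. Ranking by a ratio that holds the input favours such windows, so this follows in part from the choice. At 18167001-18168000 su(Hw)f had 146 preimmune and 44 input reads, a ratio of 3.41 (2.42 to 4.89), and wild type had 255 and 57, a ratio of 5.17 (3.87 to 7.02). At 16220001-16221000 su(Hw)f had 195 and 78 reads (2.57, 1.97 to 3.39) and wild type 429 and 79 (6.28, 4.93 to 8.09). At 13421001-13422000 su(Hw)f had 173 and 77 reads (2.31, 1.76 to 3.06) and wild type 343 and 60 (6.61, 5.01 to 8.85). In these windows su(Hw)f preimmune was at 0.866, 1.16 and 1.03 of its interior median, and wild-type preimmune at 2.45, 4.12 and 3.29. The other 2 of the 5 highest were 10891001-10892000, with 2.93 in su(Hw)f and 5.80 in wild type, and 4768001-4769000, with 3.29 and 4.70.

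The lowest 1 kb ratios belonged to windows with much input, which the ranking likewise favours. At 240001-241000 su(Hw)f had 135 preimmune and 597 input reads, a ratio of 0.232 (0.191 to 0.281), and wild type had 40 and 279, a ratio of 0.166 (0.116 to 0.231). At 10773001-10774000 su(Hw)f had 172 and 379 reads (0.466) and wild type 18 and 207 (0.101). The other 3 lowest were 5016001-5017000, with 0.365 in su(Hw)f and 0.128 in wild type, 5322001-5323000, with 0.303 and 0.182, and 11439001-11440000, with 0.416 and 0.146. In all 5 windows su(Hw)f preimmune lay between 0.801 and 1.04 of its interior median, and wild-type preimmune between 0.173 and 0.442.

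Between the strains, the su(Hw)f over wild type ratio for the whole interior was 0.966 (0.964 to 0.968) in preimmune and 0.976 (0.974 to 0.978) in input. The input ratio turned to 1.02 under the median scaling, so its direction rests on the scaling. In 100 kb windows the preimmune ratio ran from 0.692 to 1.29, and 32 windows were higher in su(Hw)f (against 22.5% over all major arms) and 67 lower (against 24.5%). The input ratio ran from 0.772 to 1.16, with 10 windows higher in su(Hw)f (against 6.99%) and 40 lower (against 15.5%). The input split was 25 higher and 22 lower with the median scaling. At the main scaling the input counts were 35 higher and 23 lower on the X interior, 7 and 42 on 3L, and 9 and 13 on 3R.

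The preimmune pair and the input pair share the strains but no library, and windows past the fold in input mostly differed the same way in preimmune. Of the 40 windows lower in su(Hw)f input, all 40 had a preimmune ratio below 1, with a median of 0.826, against 89 of the 160 windows not past the fold in input, with a median of 0.991. Of the 40, 34 were called lower in preimmune, 85.0% of the input list and 50.7% of the preimmune list. Of the 10 higher in su(Hw)f input, all 10 had a preimmune ratio above 1 (9 with the median scaling), with a median of 1.16, against 71 of those 160. Of the 40 lower windows 19 were input dips, and of the 10 higher windows 7 were rises. Over the 33 dips the median strain ratio was 0.883 in input and 0.844 in preimmune, below 1 in 32 in each. Over the 38 rises it was 1.05 in input and 1.13 in preimmune, above 1 in 32 and 34. In the 139 other windows it was 0.960 and 0.967. The inputs chose these classes, and su(Hw)f input had the wider profile (SD 0.230 against 0.161). How far this accounts for the agreement of the pairs was not tested. The log2 ratios of the 2 pairs over the 210 windows had r 0.879 and rho 0.875.

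**Figure D4:**
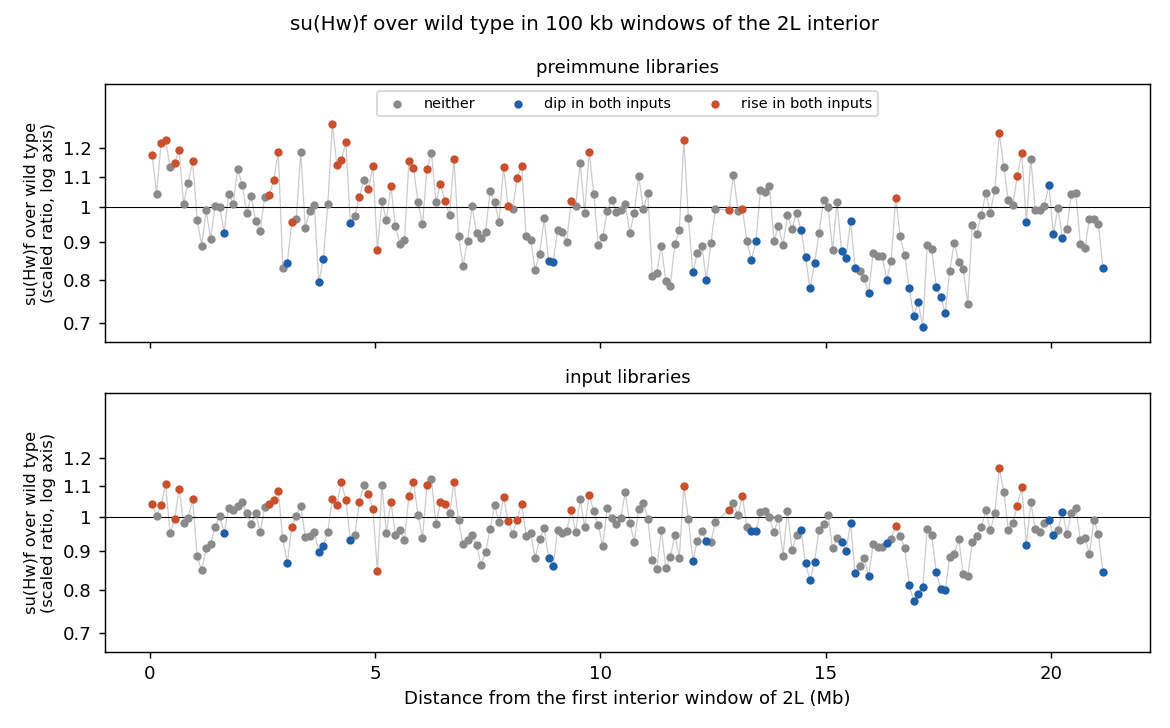
su(Hw)f over wild type in 100 kb windows along the 2L interior on a log axis, in the preimmune libraries (upper panel) and the input libraries (lower panel), scaled to reads on the major arms. The windows with the lowest input ratios, 0.772 to 0.806, lie close together and are low in the preimmune panel too.

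The 5 windows with the lowest su(Hw)f over wild type ratio in input all lay between 17100001 and 17900000, in the dips described above. At 17100001-17200000 su(Hw)f had 11121 preimmune and 8961 input reads and wild type 9326 and 7847, giving strain ratios of 0.716 (0.697 to 0.737) in preimmune and 0.772 (0.749 to 0.796) in input. The other 4 were 17200001-17300000 (0.748 in preimmune and 0.789 in input), 17800001-17900000 (0.723 and 0.798), 17700001-17800000 (0.759 and 0.802) and 17300001-17400000 (0.692 and 0.806). The stretch 17000001-18400000 had a strain ratio of 0.793 (0.788 to 0.799) in preimmune and 0.858 (0.852 to 0.864) in input. The stretch of the same length before it, 15600001-17000000, was lower in su(Hw)f too, with 0.862 in preimmune and 0.913 in input. The one after it, 18400001-19800000, had 1.05 in preimmune and 1.02 in input. The stretch bounds were chosen after the values were seen.

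By the su(Hw)f over wild type ratio in input, the highest window was 19000001-19100000, where su(Hw)f had 19377 preimmune and 24322 input reads and wild type 9254 and 14136. Its strain ratio was 1.26 (1.23 to 1.29) in preimmune and 1.16 (1.14 to 1.19) in input. The next 4 by input were 6400001-6500000 (1.18 in preimmune and 1.12 in input), 6000001-6100000 (1.13 and 1.12), 4400001-4500000 (1.16 and 1.11) and 6900001-7000000 (1.16 and 1.11). Of the first of these 18.7% of 100 bp windows were empty in all libraries.

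In 10 kb windows of input, called at 1.5-fold with at least 50 counts, 7 of 2087 were lower in su(Hw)f (0.335%, against 1.34% over all major arms) and 0 were higher (against 0.294%). Preimmune at the same threshold had 32 higher (against 2.57%) and 72 lower (against 3.42%) of 2089, and 5 of the 7 input windows were among its lower ones. The 7 were single windows. At 1770001-1780000 su(Hw)f had 152 preimmune and 146 input reads and wild type 241 and 220, strain ratios of 0.379 (0.307 to 0.466) in preimmune and 0.449 (0.361 to 0.555) in input, with 45% of the 100 bp windows empty. At 20160001-20170000 there were 98 and 71 preimmune reads and 62 and 80 input reads in su(Hw)f and wild type, ratios of 0.829 and 0.524, with 76% empty. These 2 windows rest on few reads. The windows 7720001-7730000, 3970001-3980000, 17170001-17180000 and 17760001-17770000 had strain ratios of 0.810, 0.515, 0.632 and 0.615 in preimmune, and of 0.630, 0.647, 0.650 and 0.651 in input.

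The remaining window, 5200001-5210000, was high in wild type. su(Hw)f had 1571 preimmune and 2254 input reads there and wild type 1774 and 2737, and the strain ratio was 0.532 (0.497 to 0.570) in preimmune and 0.557 (0.526 to 0.589) in input. In 1 kb windows the difference covered 16 kb at 5201001-5217000, bounds chosen after the values were seen. Over this segment su(Hw)f stood at 1.02 in preimmune and 1.26 in input, and wild type at 1.89 and 2.24. The strain ratio was 0.523 (0.497 to 0.551) in preimmune and 0.534 (0.510 to 0.560) in input, and it was below 1 in 15 of 16 windows of 1 kb in preimmune and in 16 of 16 in input. These counts follow in part from the choice of bounds and are no separate support. The 16 kb before it had 1.30 in preimmune and 1.14 in input, and the 16 kb after it 1.01 and 0.990. Copy number was not measured by any means other than these counts.

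**Figure D5:**
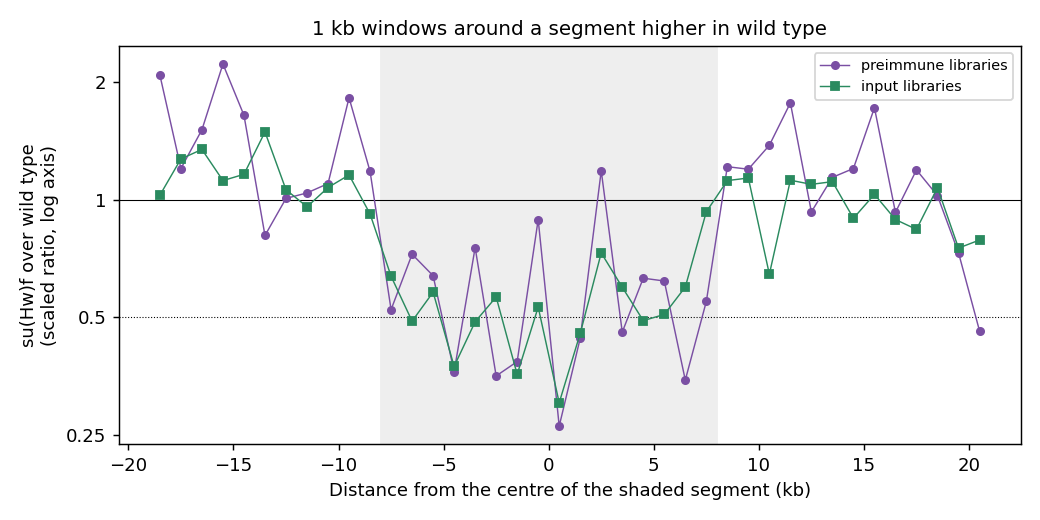
su(Hw)f over wild type in 1 kb windows against the distance in kb from the centre of the 16 kb segment (shaded), on a log axis, for preimmune and input libraries. Inside the segment the pooled ratio is 0.523 in preimmune and 0.534 in input, and the pooled 16 kb flanks are at 1.30 and 1.14 before it and 1.01 and 0.990 after it, though single flank windows scatter on both sides of 1.

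At 1 kb, called at 2-fold with at least 20 counts, 20 of 20158 windows were higher in su(Hw)f input (0.0992%, against 0.226% over all major arms) and 373 lower (1.85%, against 2.25%). The lower windows were mostly scattered, with 324 single windows among 346 runs and a longest run of 4 kb. They were low in reads, with median input reads of 42 for su(Hw)f and 67 for wild type, against 149 and 111 over all windows. Of these 373 windows 209 (56.0%) were called lower in preimmune and 1 higher, against 1413 lower and 1030 higher among the 20148 windows tested in both pairs. Of the 20 higher windows 18 were tested in both pairs, and 15 of the 18 were called higher in preimmune and 0 lower. Some of the 20 rest on very few preimmune reads. At 11996001-11997000 there were 2 in su(Hw)f and 1 in wild type, and at 2294001-2295000 there were 10 and 4. In the preimmune pair 1033 of 20182 windows were higher in su(Hw)f (5.12%, against 5.96%) and 1428 lower (7.08%, against 6.67%).

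The 3 highest input ratios at 1 kb belonged to windows that held few wild-type reads, and were chosen for that ratio after the values were seen. At 20175001-20176000 su(Hw)f had 200 preimmune and 101 input reads and wild type 5 and 5, strain ratios of 24.0 (10.1 to 74.8) in preimmune and 13.7 (5.66 to 43.0) in input, intervals that are wide because wild type had so few reads. At 19077001-19078000 su(Hw)f had 202 and 186 reads and wild type 58 and 16, ratios of 2.09 (1.56 to 2.85) and 7.86 (4.71 to 14.0). Its neighbour 19078001-19079000 had 264 and 254 reads in su(Hw)f and 34 and 51 in wild type, ratios of 4.67 and 3.37. At 21394001-21395000 su(Hw)f had 139 and 140 reads and wild type 14 and 19, ratios of 5.97 (3.44 to 11.2) and 4.98 (3.07 to 8.52).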

How the data were processed

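Each library has a deposited wiggle file of unscaled, whole-number read counts in 100 bp windows. The file headers name the preimmune tracks igG and the input tracks WCE. The submitters' processing notes name build dm3 and Partek 6.5. Aligner, duplicate handling and multiple matches: not given in the sources used here. Any reads lost from repeats leave windows empty, and kept duplicates widen scatter beyond counting error.

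Counts were summed to 1, 10 and 100 kb, and ratios were scaled to reads on the 6 major arms. Ratio intervals are 95% exact conditional (Clopper-Pearson) and level intervals exact Poisson. Background percentages cover all windows of the major arms. The median 100 bp window held 9 to 16 reads, which limits precision there.

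Regions named are the 10 lowest dips and 5 highest rises, the 5 highest and 5 lowest windows of each ratio, and all 10 kb strain calls, plus those said to be chosen after their values were seen. Named 1 kb windows of preimmune over input needed 40 reads. Members, lists and thresholds were chosen with earlier results of these data known. Alternatives were another scaling, threshold, window size, grid or count minimum. Scripts (Python 3.11.15, numpy 2.4.6, scipy 1.17.1, matplotlib 3.10.9) were tested on simulated data with counting error alone. No dm3 sequence or gene annotation was used here.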

Additional observations from a re-analysis of the deposited data

Results flagged for a closer look

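At 1 kb the window 13147001-13148000 was the only one of 20152 tested in both genotypes whose preimmune over input was called in opposite directions. su(Hw)f had 179 preimmune and 83 input reads, a ratio of 2.22 (1.70 to 2.91), and wild type had 29 and 70, a ratio of 0.479 (0.299 to 0.748). Each genotype has 1 library of each kind, so the difference between genotypes was not tested.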

How the results depend on the processing

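Of 98 alternatives over 30 results, 57 stayed within the set range of the main value (1.5 times for a count), 39 moved and 2 reversed. The cause was not tested beyond what each alternative's construction shows. Counts at another window size were compared without regard to the number of windows, so their label of moved follows in part from that number. The 5 kb windows tested numbered 4124 to 4131, against 2087 windows of 10 kb and 20158 to 20182 of 1 kb in the main settings. Dips numbered 21 with thresholds at 20% from the median, 72 of 420 windows at 50 kb, and 21 with empty windows left out. Rises numbered 20 at 20%, 59 at 10%, and 92 of 420 windows at 50 kb. With median scaling, su(Hw)f preimmune over input was higher and lower in 30 and 68 windows of 100 kb and 868 and 903 of 1 kb, and the strain input in 25 and 22 of 100 kb and 1 and 4 of 10 kb. At 1.2-fold, su(Hw)f preimmune over input gave 35 and 10 windows, wild type 49 and 21, and the strain input 0 and 7; a shifted grid gave 6 higher strain input windows. In 5 kb windows, preimmune over input gave 16 higher and 10 lower calls in su(Hw)f and 77 and 76 in wild type; the same counts were 13 and 32 for strain preimmune, 7 and 56 for strain input at 1.5-fold, and 3 and 7 at 2-fold. A minimum of 100 counts left 222 lower strain input windows of 1 kb. Scaled to all reads, the whole-interior ratios were 1.03 and 1.04 for preimmune over input in su(Hw)f and wild type, and 0.972 and 0.981 for strain preimmune and input. With median scaling they were 0.943 (reversed) and 1.04, and 0.935 and 1.02 (input reversed). The alternatives of strain input at 1 kb and of the counts of ratios above or below 1 were chosen after seeing the data. No paired analysis was possible because each group holds a single library, and for the same reason none could be left out. Depth limits the 1 kb calls, since a call at the minimum of 20 counts rests on few reads.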
